A study of Bos taurus with 79 samples.

Results

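HPSE, ASGR2 and HAVCR1 were, after DGAT2, the named genes with the largest excess in endometrium of heifers given extra progesterone on day 7. They were chosen for that excess, by every probe set that the platform annotation assigns to one of these symbols alone. This gave 5 probe sets of 24016 and 3 genes of 9155. HPSE (gene ID 281230) had the probe sets Bt.8127.1.S1_at and Bt.8127.1.S2_at, ASGR2 (gene ID 531519) had Bt.18330.1.A1_at and Bt.18330.2.S1_at, and HAVCR1 (gene ID 613999) had Bt.14734.1.S1_at. The brightest probe set stands for its gene unless the other is named.

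The study measured endometrial RNA of cross-bred beef heifers on 79 single-colour arrays. Heifers were either not inseminated (cyclic) or carried a pregnancy, and tissue was taken at slaughter 5, 7, 13 or 16 days after estrus. For high progesterone a vaginal device that releases the hormone was placed on day 3 and stayed in place to the end, and for normal progesterone only the animals' own hormone acted. The 4 arms are cyclic normal (CN), cyclic high (CH), pregnant normal (PN) and pregnant high (PH), with 5 heifers per arm and day except day 7 CH, which had 4 (replicates 2 to 5). All heifers had been through estrous synchronization. Values are log2 expression values, so a difference of 1 is a doubling of signal, and the spread between heifers limits the precision.

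Progesterone from the corpus luteum changes what the endometrial epithelium makes and secretes in the first days after ovulation, before the embryo attaches. Progesterone given early is known to advance this sequence. HPSE is heparanase, the enzyme that cuts heparan sulfate chains inside the chain and so releases growth factors held in the matrix. ASGR2 is a subunit of the asialoglycoprotein receptor, a C-type lectin best known from liver that takes up glycoproteins with exposed galactose. HAVCR1, also called TIM-1 or KIM-1, is a membrane receptor of phosphatidylserine, known from injured kidney tubules, where it lets epithelial cells engulf dying cells, and from lymphocytes.

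HPSE and HAVCR1 were near the floor on most arrays, while ASGR2 was above 3 on most. The lowest and highest values over 79 arrays were 2.19 and 6.84 for HPSE, 2.90 and 9.08 for ASGR2, and 2.03 and 5.82 for HAVCR1. Of all probe sets, 32.2% had a mean under 3, near the floor of the arrays. HPSE passed 3 on 19 arrays, ASGR2 on 76 and HAVCR1 on 12. A difference between a group above 3 and a group below it may therefore understate the change in RNA. In RNA from whole tissue, fewer cells of a type and less RNA per cell cannot be told apart.

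There were 7 arrays that stood apart from the rest, by criteria chosen after the values were seen. Day 7 CH 3 and day 13 PH 1 had narrow distributions. Day 5 PN 4, day 7 PH 5 and day 13 PH 4 had smooth muscle marker means of 11.56, 11.28 and 12.5. Day 5 CH 3 and day 7 CN 5 deviated widely from their groups. Epithelial and stromal markers were present throughout: on days 5 and 7 the mean of 9 epithelial markers lay between 7.25 and 8.13 and that of 9 stromal markers between 10.83 and 11.59, although the keratin KRT8 had a mean under 3. P-values rest on the spread between heifers, which the labels call biological replicates, pooled for each probe set over all 16 groups. The day 7 groups that chose the genes are part of that spread. Group SDs ran from 0.01 to 1.57 for HAVCR1 and from 0.04 to 1.64 for HPSE. An SE or interval may therefore differ from the spread on the days compared.

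On day 7 heparanase was low in most heifers with normal progesterone and clearly above the floor in most with high progesterone. HPSE was 4.22, 3.46, 2.52, 2.51 and 2.20 in the CN heifers and 5.43, 2.99, 6.84 and 5.94 in the CH heifers. In the pregnant heifers HPSE was 3.18, 2.82, 2.76, 2.40 and 2.52 at normal progesterone and 5.57, 4.55, 4.77, 3.79 and 6.05 at high progesterone. Every PH heifer lay above every PN heifer, whereas CH 3 lay inside the CN range. Of the 9 heifers with high progesterone, 7 were above all 10 with normal progesterone. For all 3 genes such day 7 separation is a description only, since they were chosen for this difference. The share of all probe sets that separate in this way was not determined.

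The day 7 HPSE means were 2.98 ± 0.84 (SD, n = 5) in CN, 5.30 ± 1.64 (SD, n = 4) in CH, 2.74 ± 0.30 (SD, n = 5) in PN and 4.95 ± 0.88 (SD, n = 5) in PH. High minus normal progesterone was 2.27 ± 0.28 (SE) averaged over both arms, 2.32 in cyclic and 2.21 in pregnant heifers. This contrast chose the genes and is given without a test. The second HPSE probe set, which tracked the first with r = 0.936 over 79 arrays, had a day 7 difference of 2.05.

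ASGR2, the receptor subunit, was above 3 in all but 1 of the day 7 heifers and varied among those with normal progesterone. Its day 7 values were 7.20, 3.76, 3.67, 4.71 and 2.94 in CN and 8.12, 7.57, 8.71 and 6.69 in CH. Pregnant heifers had 6.35, 6.29, 4.88, 4.41 and 5.00 at normal and 5.74, 7.30, 9.08, 5.24 and 9.06 at high progesterone. CN 1 alone among the CN heifers reached the CH range, and in the pregnant heifers PH 1 and PH 4 lay inside the PN range.

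The day 7 ASGR2 means were 4.45 ± 1.66 (SD, n = 5) in CN, 7.77 ± 0.86 (SD, n = 4) in CH, 5.39 ± 0.88 (SD, n = 5) in PN and 7.29 ± 1.80 (SD, n = 5) in PH. The difference was 2.61 ± 0.38 (SE), with 3.32 in cyclic and 1.90 in pregnant heifers, and 6 of 9 heifers with high progesterone lay above all 10 others. The second ASGR2 probe set was dimmer, with 14 of 79 arrays above 3, and its day 7 difference was 1.63, with 1.48 in cyclic and 1.78 in pregnant heifers, the order of the arms being the other way. The pair correlated with r = 0.908 over 79 arrays.

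HAVCR1 was near the floor in all day 7 heifers with normal progesterone and above 3 in 7 of 9 with high progesterone. The CN values were 2.09, 2.07, 2.94, 2.04 and 2.05, and the CH values were 3.10, 4.93, 5.54 and 5.68. The PN heifers lay between 2.05 and 2.11, and the PH heifers had 4.29, 4.55, 2.44, 2.05 and 5.82. The CN and CH values did not overlap, which the choice of the gene by this contrast favours, while PH 4 lay at the PN level.

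The day 7 HAVCR1 means were 2.23 ± 0.39 (SD, n = 5) in CN, 4.81 ± 1.18 (SD, n = 4) in CH, 2.08 ± 0.02 (SD, n = 5) in PN and 3.83 ± 1.57 (SD, n = 5) in PH. The difference was 2.16 ± 0.27 (SE), with 2.58 in cyclic and 1.75 in pregnant heifers. On day 7, 4.70% of all 24016 probe sets passed an adjusted p of 0.05 for high against normal progesterone, 1.85% upward, in limma's moderated test with Benjamini-Hochberg adjustment. Nothing is read from that for genes chosen on this contrast. Without the 3 day 7 arrays and the others that stood apart, the differences were 2.41 for HPSE, 2.23 for ASGR2 and 1.87 for HAVCR1.

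**Figure D1:**
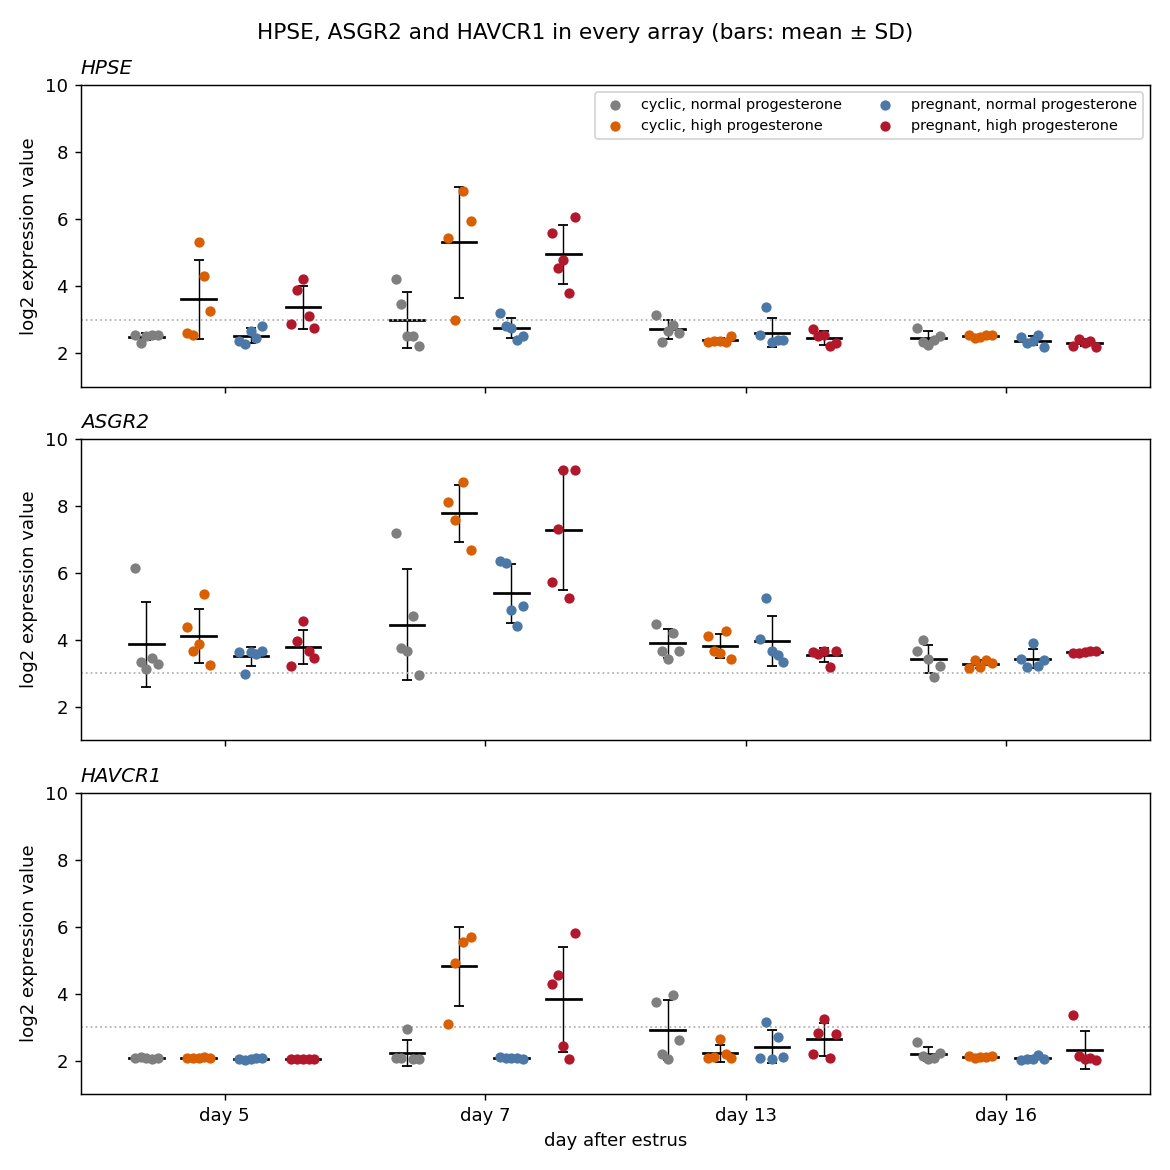
Log2 expression value of HPSE, ASGR2 and HAVCR1 in each of 79 arrays (points), by day after estrus and arm, with the group mean and SD as bars; the dotted line marks 3, near the floor. The day 7 CH and PH groups have the highest means for all 3 genes, though some of their heifers lie within the range of other groups. HPSE also reaches 5.30 in a day 5 CH heifer, and HAVCR1 reaches 3.97 in a day 13 CN heifer.

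Within the day 7 heifers the 3 genes did not always go together. All 3 were above 3 in 6 of 9 heifers with high progesterone and in 0 of 10 with normal progesterone, and the other 3 heifers with high progesterone had 2 of the genes above 3. PH 3 and PH 4 had HPSE and ASGR2 above 3 but HAVCR1 at 2.44 and 2.05. CH 3 had ASGR2 at 7.57 and HAVCR1 at 4.93 with HPSE at 2.99, and this array was the one with the narrow distribution. CN 1 had HPSE at 4.22 and ASGR2 at 7.20, with HAVCR1 at 2.09.

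**Figure D2:**
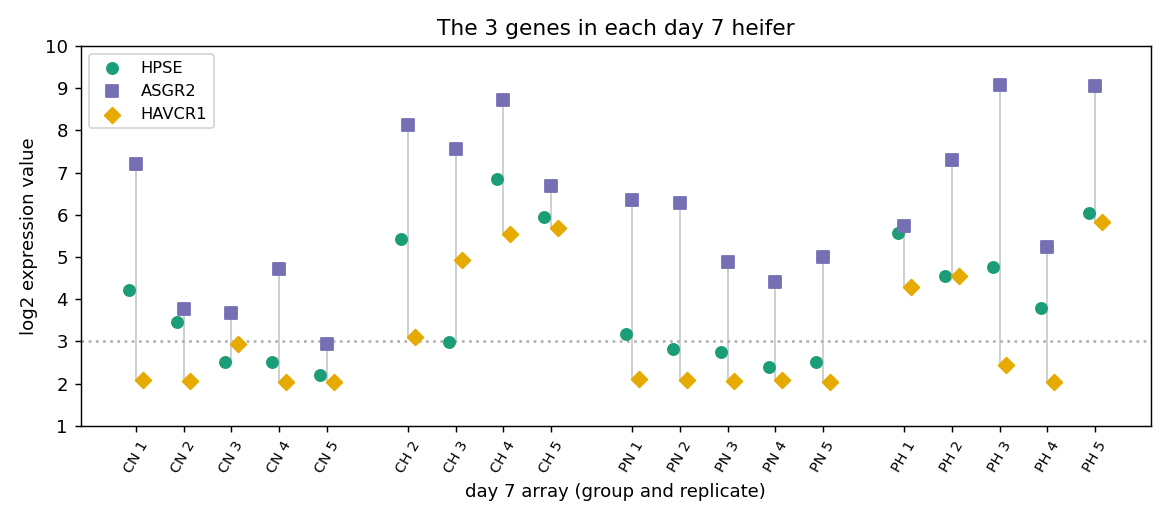
Log2 expression value of HPSE (circles), ASGR2 (squares) and HAVCR1 (diamonds) in each day 7 array, with arm and replicate on the horizontal axis, a grey line joining the 3 genes of 1 array and a dotted line at 3. All 3 symbols lie above the dotted line in 6 of 9 CH and PH arrays and in 0 of 10 CN and PN arrays.

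On day 5, after a shorter exposure, HPSE was above the floor in part of the heifers with high progesterone, and the difference missed the threshold. The CN heifers had HPSE values of 2.53, 2.30, 2.52, 2.53 and 2.53, and the PN heifers 2.37, 2.28, 2.66, 2.46 and 2.82. The CH heifers had 2.61, 2.53, 5.30, 4.30 and 3.26, and the PH heifers 2.86, 3.88, 4.20, 3.10 and 2.76. Of heifers with high progesterone, 7 of 10 were above all 10 with normal progesterone, and 6 of 10 passed 3 against 0 of 10. The share of all probe sets that separate in this way on day 5 was not determined, so these counts are a description only. The day 5 difference in HPSE was 0.98 ± 0.27 (SE), 1.12 in cyclic and 0.84 in pregnant heifers, with an unadjusted p of 0.000567 and an adjusted p of 0.0566 (limma, Benjamini-Hochberg over 24016 probe sets).

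The second HPSE probe set lay between 1.94 and 2.19 in the day 5 heifers with normal progesterone. In those with high progesterone it lay between 2.05 and 3.52, with 8 of 10 above all controls, again a description only. The difference of this probe set was 0.62 ± 0.26 (SE) with an adjusted p of 0.313 in limma. None of the 3 genes passed on day 5, when 0.908% of all probe sets did. The adjusted p of HPSE lay between 0.0196 and 0.313 over the alternatives tried. It passed without CH 1 (0.0249), CH 2 (0.0196), PH 1 (0.0465) or PH 5 (0.0389), and it was 0.179 without CH 3, when the difference was 0.77. With only the day 5 arrays in the fit the adjusted p was 0.202, and with values under 3 set to 3 the difference was 0.60 with an adjusted p of 0.282.

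CH 3, the day 5 heifer with the highest HPSE value, was also the array with the highest leukocyte markers of that day. Its mean over 10 macrophage markers was 10.08 against 5.98 to 7.68 in the other 19 day 5 arrays. Its mean over 5 neutrophil and mast cell markers was 10.69 against 4.21 to 4.81, that over 5 B and plasma cell markers 7.69 against 2.95 to 3.38, and that over 13 T and NK cell markers 6.20 against 3.26 to 4.13. Macrophages and neutrophils are known to express heparanase, and the part of these cells in the HPSE value of CH 3 was not tested. Without all 7 arrays that stood apart, CH 3 among them, the day 5 HPSE difference was 0.76 with an adjusted p of 0.0363 in limma.

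The macrophage list overlapped between the arms on day 5. Its lowest, median and highest means were 5.98, 6.59 and 7.47 at normal and 6.31, 6.99 and 10.08 at high progesterone. Of its 10 measured genes 0 passed the test (median difference 0.53), when 0.721% of all named genes passed upward and 0.492% downward. The neutrophil and mast cell list ran from 4.31 to 4.81 at normal and from 4.21 to 10.69 at high progesterone, with medians of 4.47 and 4.50. Its 5 measured genes had 0 that passed (median difference 0.91), as had the 5 B and plasma cell genes (0.54). At such shares, 0 in a short list is not read as a result.

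ASGR2 and HAVCR1 had no day 5 difference that passed. ASGR2 was 6.14, 3.33, 3.14, 3.46 and 3.28 in CN, 4.38, 3.68, 3.89, 5.36 and 3.24 in CH, and between 2.99 and 4.56 in the pregnant heifers. The highest ASGR2 value of day 5 thus belonged to a heifer with normal progesterone, CN 1. The ASGR2 difference was 0.26 ± 0.37 (SE; 95% interval -0.49 to 1.00; adjusted p = 1 in limma).

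HAVCR1 lay between 2.03 and 2.12 in all 20 day 5 heifers. Its difference was 0.01 ± 0.26 (SE; 95% interval -0.51 to 0.52; adjusted p = 1 in limma). That interval reflects the spread pooled over all 16 groups, which is far wider than that of the day 5 values. With every value at the floor, a change in HAVCR1 RNA below the detection range would not show on day 5.

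Late in the luteal phase the device made no difference that passed for any of the 3 genes. On day 13 the means of HPSE were 2.71, 2.38, 2.60 and 2.45 in CN, CH, PN and PH, those of ASGR2 3.90, 3.82, 3.97 and 3.55, and those of HAVCR1 2.92, 2.22, 2.42 and 2.63. The high minus normal differences were -0.24 ± 0.27 (SE) for HPSE, -0.24 ± 0.37 for ASGR2 and -0.24 ± 0.26 for HAVCR1, with adjusted p of 0.902, 0.909 and 0.902 in limma. On that day 0.441% of all probe sets passed.

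On day 16 the group means lay between 2.30 and 2.51 for HPSE, between 3.29 and 3.64 for ASGR2 and between 2.07 and 2.33 for HAVCR1. The differences were 0.00 ± 0.27 (SE) for HPSE, 0.03 ± 0.37 for ASGR2 and 0.09 ± 0.26 for HAVCR1, and 0 of 3 genes passed, against 0.0958% of all probe sets. The 95% intervals reached up to 0.54 for HPSE, 0.77 for ASGR2 and 0.61 for HAVCR1. A single day 16 heifer, PH 1, had HAVCR1 above 3, at 3.35.

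The day 5 difference in HPSE exceeded its day 13 difference by 1.22 ± 0.38 (SE) and its day 16 difference by 0.98 ± 0.38, with adjusted p of 0.158 and 0.344 in limma. The change of the HPSE response between days therefore did not pass across all probe sets. For ASGR2 and HAVCR1 the same differences between days were 0.50 and 0.23, and 0.25 and -0.08, and 0 of these 4 passed.

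**Figure D3:**
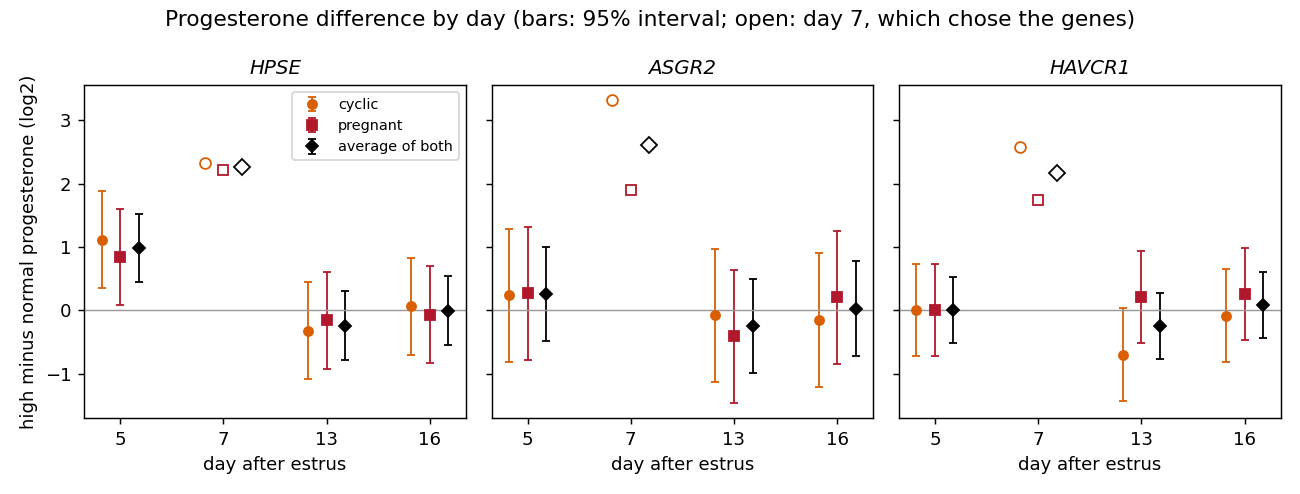
High minus normal progesterone (log2) for HPSE, ASGR2 and HAVCR1 on days 5, 7, 13 and 16 in cyclic heifers (circles), pregnant heifers (squares) and their average (diamonds); bars are 95% intervals of the fit, and the open day 7 symbols carry none because that day chose the genes. The averages on day 5 are 0.98, 0.26 and 0.01, and on day 7 they are 2.27, 2.61 and 2.16.

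The order of the 16 group means was led by the day 7 CH and PH groups for each gene. For HPSE the next were day 5 CH and day 5 PH at 3.60 ± 1.19 and 3.36 ± 0.65 (SD, n = 5 each), then day 7 CN at 2.98, with all later groups at 2.74 or less. For ASGR2 the next were day 7 PN at 5.39 and day 7 CN at 4.45, so that the 4 day 7 groups filled the first 4 places. For HAVCR1 the next was day 13 CN at 2.92. Neighbours in these orders overlapped in 15 of 15 pairs for each gene, and 1 gap per gene exceeded the larger SD of its pair. That gap lay between day 7 PH and day 5 CH for HPSE (1.35) and between day 7 PH and day 7 PN for ASGR2 (1.90). For HAVCR1 it was a gap of 0.04 between groups at the floor.

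In cyclic heifers with normal progesterone the 3 genes followed different courses, none of which passed. HAVCR1 was 2.06 to 2.12 on day 5, 2.04 to 2.94 on day 7 and then 3.76, 2.20, 2.05, 3.97 and 2.63 on day 13. Heifers CN 1 and CN 4 of day 13 were above 3 and CN 3 was at the floor. The HAVCR1 difference between day 5 and day 13 was 0.84 ± 0.37 (SE; unadjusted p = 0.0249, adjusted p = 0.104 in limma). The adjusted p was 0.0441 without day 13 CN 3 and 0.016 when only the arrays of days 5 and 13 entered the fit. With values under 3 set to 3 the difference was 0.35 with an adjusted p of 0.490.

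HPSE and ASGR2 differed by 0.22 ± 0.38 and 0.03 ± 0.53 (SE) between days 5 and 13, with adjusted p of 0.766 and 0.980 in limma. Of all probe sets, 19.4% passed in this comparison. Between days 13 and 16, when 0.666% of all probe sets passed, HPSE differed by -0.26, ASGR2 by -0.46 and HAVCR1 by -0.71, with adjusted p of 1, 1 and 0.619. As a description only, since these share the day 7 arrays, the CN means of day 7 exceeded those of day 5 by 0.50 for HPSE, 0.58 for ASGR2 and 0.15 for HAVCR1.

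Pregnancy did not change any of the 3 genes on any day by a difference that passed. HPSE differed between pregnant and cyclic heifers by -0.10, -0.30, -0.02 and -0.14 on days 5, 7, 13 and 16, with SEs of 0.27 to 0.28. For ASGR2 the differences were -0.35, 0.22, -0.10 and 0.17, with SEs of 0.37 to 0.38. HAVCR1 differed by -0.03, -0.57, -0.04 and 0.04, with SEs of 0.26 to 0.27.

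The day 7 value of HAVCR1 had an unadjusted p of 0.0372 and an adjusted p of 0.607 in limma, and the adjusted p of the other 11 tests lay at or above 0.729. Across all probe sets 0.0167%, 0%, 0% and 3.16% passed for pregnancy on days 5, 7, 13 and 16. At an unadjusted p under 0.05 there were 2370, 1878, 620 and 3241 of 24016 in limma. Without the arrays that stood apart, 3 probe sets passed on day 7 and 3 on day 13.

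The progesterone response did not differ between pregnant and cyclic heifers by a test that passed. HAVCR1 on day 13 came nearest, with high minus normal differences of -0.70 in cyclic and 0.21 in pregnant heifers and an interaction of 0.91 ± 0.52 (SE; adjusted p = 0.590 in limma). The day 13 CH heifers had 2.07, 2.12, 2.66, 2.19 and 2.08, and the PH heifers 2.19, 2.84, 3.26, 2.07 and 2.81. Across all probe sets the interaction passed for 0% on day 5, 0.0208% on day 13 and 0.870% on day 16. On day 5 686 probe sets had an unadjusted p under 0.05 for it in limma. The day 7 interactions, given as a description, were -0.11 for HPSE, -1.42 for ASGR2 and -0.83 for HAVCR1. The second probe set of ASGR2 gave 0.31 ± 0.65 (SE), of the opposite sign, and that of HPSE gave -0.34 ± 0.53.

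Heifers of the same group that had more HPSE tended to have more ASGR2. Over deviations from the group means of all 79 arrays, HPSE and ASGR2 correlated with Pearson's r = 0.431 and Spearman's rho = 0.426 (p = 0.00608 and 0.00189, permutation within groups, two-sided). The Benjamini-Hochberg adjusted p over the 3 pairs of genes was 0.0182 for r. Without the 2 arrays farthest from the median in HPSE, the first gene of the pair, r was 0.531. Arrays far out only in the second gene stayed in, so such a value does not show that r is free of outlying arrays. In each pair below, the farthest arrays were likewise those of the first gene named. HPSE and HAVCR1 gave r = 0.31 and rho = 0.248 (permutation p = 0.124 and 0.0461; adjusted p = 0.186 for r), with r = 0.401 without the 2 farthest arrays. ASGR2 and HAVCR1 gave r = 0.173 and rho = 0.121 (permutation p = 0.411 and 0.328), with r = 0.222 without the 2 farthest arrays. The points share array and RNA, and the 3 genes share the contrast that chose them.

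By day, r of HPSE and ASGR2 was 0.284 on day 5, 0.472 on day 7, 0.789 on day 13 and 0.008 on day 16. The relation was therefore not found on each day: the adjusted permutation p was 0.0105 on day 13 and 0.647, 0.133 and 0.983 on days 5, 7 and 16. On day 13 HPSE and HAVCR1 had r = 0.604 and ASGR2 and HAVCR1 r = 0.615, with adjusted permutation p of 0.0142 and 0.0105. Heifer PN 2 of day 13 was the highest of its group for all 3 genes, at 3.36, 5.24 and 3.17, and CN 1 had 3.12, 4.48 and 3.76. Without the 2 arrays farthest from the median in the first gene of each pair, the 3 day 13 values were 0.459, 0.421 and 0.46.

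The genes with the most similar profile over the 16 group means were named by the highest r among 1339 genes whose group means had an SD of at least 0.5. HPSE was closest to SMTNL2 (r = 0.913), a smoothelin-like protein, then ASGR2 (0.907), the cyclic nucleotide-gated channel subunit CNGA1 (0.887), the Eph receptor ligand EFNA1 (0.88) and the nuclear envelope protein SYNE4 (0.864). ASGR2 was closest to CNGA1 (0.934), the endoplasmic reticulum oxidoreductase ERO1A (0.93), HPSE (0.907), LOC613358 (0.903) and RTP3 (0.892). HAVCR1 was closest to CNGA1 (0.909), ASGR2 (0.86), EFNA1 (0.843), HPSE (0.837) and TRIM45 (0.82).

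CNGA1 appeared in all 3 lists, with its highest group mean, 4.72, in day 7 CH and a median group mean of 2.60. The points are 16 groups, and the 4 day 7 groups that chose the members are among them. HAVCR1 ranked 7 in the list of HPSE and 11 in that of ASGR2.

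The partner subunit of ASGR2 was near the floor on nearly all arrays. ASGR1, which joins ASGR2 in the same receptor, lay between 2.31 and 2.60 in the 10 day 7 heifers with normal progesterone and had a median of 2.38 in the 9 with high progesterone. Its highest values, 5.50 in day 7 CH 3 and 5.43 in day 13 PH 1, came from the 2 arrays with narrow distributions. ASGR1 differed by 0.44 ± 0.23 (SE) on day 7, with an adjusted p of 0.326 in limma, and it passed in 0 of the 10 comparisons run for it.

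TIMD4, another phosphatidylserine receptor of the TIM family, had no day 7 difference that passed. It had group means of 4.00, 3.04, 3.05 and 3.09 in CN, CH, PN and PH on day 7 and a progesterone difference of -0.45 ± 0.39 (SE; adjusted p = 0.590 in limma). TIMD4 rose with pregnancy on day 16 by 2.13 ± 0.38 (SE; adjusted p = 6.061e-05 in limma). It lay between 2.62 and 3.40 in the 10 cyclic heifers of that day, and between 3.38 and 5.57 in PN and 3.48 and 6.76 in PH. HAVCR1 differed by 0.04 ± 0.26 in that comparison. Of all named genes 2.84% rose and 1.29% fell in the same comparison. Of 10 macrophage markers 3 rose (median 0.63): the complement subunits C1QC by 1.41 and C1QB by 1.23, and the Fc receptor chain FCER1G by 0.87. The mean of the 10 ran from 5.71 to 7.23 in cyclic and from 5.85 to 7.28 in pregnant heifers of day 16. Of 10 endothelial markers 0 rose and 4 fell (median -0.35), their mean running from 5.76 to 6.54 in cyclic and from 5.34 to 6.37 in pregnant heifers. Of 9 stromal markers 0 rose and 2 fell (median -0.05), with means from 10.72 to 11.4 and from 10.56 to 11.32. Of 9 epithelial markers 1 rose and 0 fell (median 0.01), and the other marker lists had no gene that passed. The part of these cell types in the TIMD4 value was not tested. HPSE2, CLEC10A and HAVCR2 were not analysed here.

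The progesterone receptor and the estrogen receptor gave values near the floor on many arrays. PGR, the progesterone receptor, lay between 2.38 and 4.54 at normal and between 2.50 and 3.07 at high progesterone on day 7, with a difference of -0.36 ± 0.22 (SE; adjusted p = 0.406 in limma). In CN heifers PGR fell by 0.98 on the log2 scale between days 5 and 13 (SE 0.30; adjusted p = 0.0141 in limma). ESR1, the estrogen receptor, differed by 0.18 ± 0.15 (SE) with progesterone on day 7 (adjusted p = 0.586 in limma). With pregnancy on day 5 ESR1 rose by 0.77 ± 0.15 (SE; adjusted p = 0.041 in limma), a call lost in 11 of the 20 fits that leave out 1 day 5 array. It was also lost when only the day 5 arrays entered the fit (adjusted p = 0.520), with array weights (0.116), with the replicate block (0.0645) and without the arrays that stood apart (0.0586).

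The pathways around HPSE, ASGR2 and HAVCR1 were set beside all named genes on day 7. In lists this short, counts of 0 or 1 are not read as a result about a pathway. Across all 9155 named genes 198 (2.16%) passed upward and 414 (4.52%) downward for progesterone on day 7, with a median difference of -0.01. Of 12 measured genes that build heparan sulfate, the substrate of HPSE, 0 passed upward and 1 downward (median -0.09). Of 9 core proteins that carry the chains, 0 passed upward and 1 downward (median -0.23), and of 5 genes that break down or edit the chains none passed (median -0.29).

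Among those that fell was GPC1, a glypican that holds heparan sulfate at the cell surface, by 0.69 on the log2 scale (SE 0.17; adjusted p = 0.00683 in limma). PAPSS1, which makes the sulfate donor, fell by 0.40 (SE 0.12; adjusted p = 0.0463), and this call was lost in 12 of the 19 fits that leave out 1 day 7 array, with adjusted p between 0.0241 and 0.148.

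Of 14 C-type lectins and genes of sialic acid turnover, which governs how much galactose is exposed to ASGR2, 0 passed upward and 2 downward on day 7 (median 0.00). NANS, which makes sialic acid, fell by 0.53 on the log2 scale (SE 0.09; adjusted p = 0.00011 in limma). ST3GAL4, which caps galactose with sialic acid, fell by 0.63 (SE 0.18; adjusted p = 0.0295), a call lost in 8 of 19 such fits.

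Of 16 genes of phosphatidylserine recognition, 0 passed upward and 2 downward on day 7 (median -0.06). ITGB3, an integrin subunit that serves as engulfment receptor, fell by 1.23 on the log2 scale (SE 0.21; adjusted p = 8.448e-05 in limma). MFGE8, the secreted bridge between phosphatidylserine and integrins, fell by 0.76 (SE 0.20; adjusted p = 0.0125), and by 0.47 with an adjusted p of 0.0826 without CH 4. Of 17 genes of endocytosis and the lysosome 1 passed upward, the cholesterol exporter NPC1, at 0.50 ± 0.15 (SE; adjusted p = 0.0336 in limma), a call lost in 6 of 19 such fits (median of the list 0.01).

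Of 27 genes known from progesterone response and secretion into the uterine lumen, 2 rose and 2 fell on day 7 (median -0.05). This list was put together with earlier results from the same heifers known. Its counts and p-values are therefore a description and not an independent test of the list. The triglyceride synthesis enzyme DGAT2 rose by 3.09 ± 0.45 (SE; adjusted p = 4.543e-06 in limma) and the matrix protein CCN2 by 0.88 ± 0.22 (SE; adjusted p = 0.00728). The fatty acid binding protein FABP3 fell by 3.19 on the log2 scale (SE 0.51; adjusted p = 2.306e-05). The fructose transporter SLC2A5 fell by 2.59 (SE 0.68; adjusted p = 0.0138), and the call was lost, with an adjusted p of up to 0.0593, when CH 3 or PN 5 was left out. When only the day 7 arrays entered the fit, the calls on PAPSS1 (adjusted p = 0.0869), ST3GAL4 (0.131), MFGE8 (0.197), NPC1 (0.167) and SLC2A5 (0.244) were lost.

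On day 5 none of the genes in the first 6 lists passed. Of all named genes 66 (0.721%) passed upward and 45 (0.492%) downward. At such shares, 0 in short lists is not read as a result. In the progesterone response list DGAT2 and MSTN, the muscle growth inhibitor myostatin, rose by 2.91 ± 0.44 and 2.75 ± 0.52 (SE). In the same list the Wnt antagonist DKK1 fell by 2.17 and the cochaperone FKBP4 by 0.65 on the log2 scale. As on day 7, these calls are not independent of the earlier results known when the list was chosen. On days 13 and 16 none of the genes of the 7 lists passed, and this is not read as a result either. Of all named genes 6 (0.0655%) passed upward and 52 (0.568%) downward on day 13. On day 16 these were 6 (0.0655%) and 2 (0.0218%).

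Between days 5 and 13 of the normal cycle several genes of the heparan sulfate lists fell. Of all named genes 924 (10.1%) rose and 1487 (16.2%) fell, with a median of -0.04. Of the 12 assembly genes 1 rose and 3 fell (median -0.14). The sulfotransferase HS6ST1 rose by 0.63 ± 0.20 (SE; adjusted p = 0.0163 in limma). The chain polymerase subunit EXT1 (-0.93), PAPSS1 (-0.85) and UGDH (-0.69), which makes the sugar precursor, fell. The UGDH call was lost without day 5 CN 5 (adjusted p = 0.0704) and with the replicate number as a block (0.134). Of the 9 core proteins 0 rose and 4 fell (median -0.75): COL18A1 (-1.86), GPC1 (-1.54), HSPG2 (-0.76) and SDC3 (-0.75). Of the 5 breakdown and editing genes 2 fell (median -1.05), the lysosomal glucuronidase GUSB (-1.84) and the extracellular sulfatase SULF2 (-1.53). HPSE itself differed by 0.22 ± 0.38 (SE) in that comparison. The call on HSPG2 was lost with the replicate number as a block, with an adjusted p of 0.0523.

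The lectin and sialic acid list had 1 gene up and 3 down between days 5 and 13. The sialidase NEU1, which removes sialic acid, rose by 1.82 ± 0.27 (SE; adjusted p = 3.249e-07 in limma). ST3GAL4 and NANS fell by 1.92 and 1.35 on the log2 scale. Of the 16 genes of phosphatidylserine recognition 1 rose and 1 fell (median -0.09). MERTK, a receptor for the engulfment of dying cells, rose by 1.40 ± 0.25 (SE; adjusted p = 1.196e-05). The scavenger receptor STAB1 fell by 0.69 on the log2 scale (SE 0.26; adjusted p = 0.0472), a call lost in 7 of 10 fits that leave out 1 array.

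**Figure D4:**
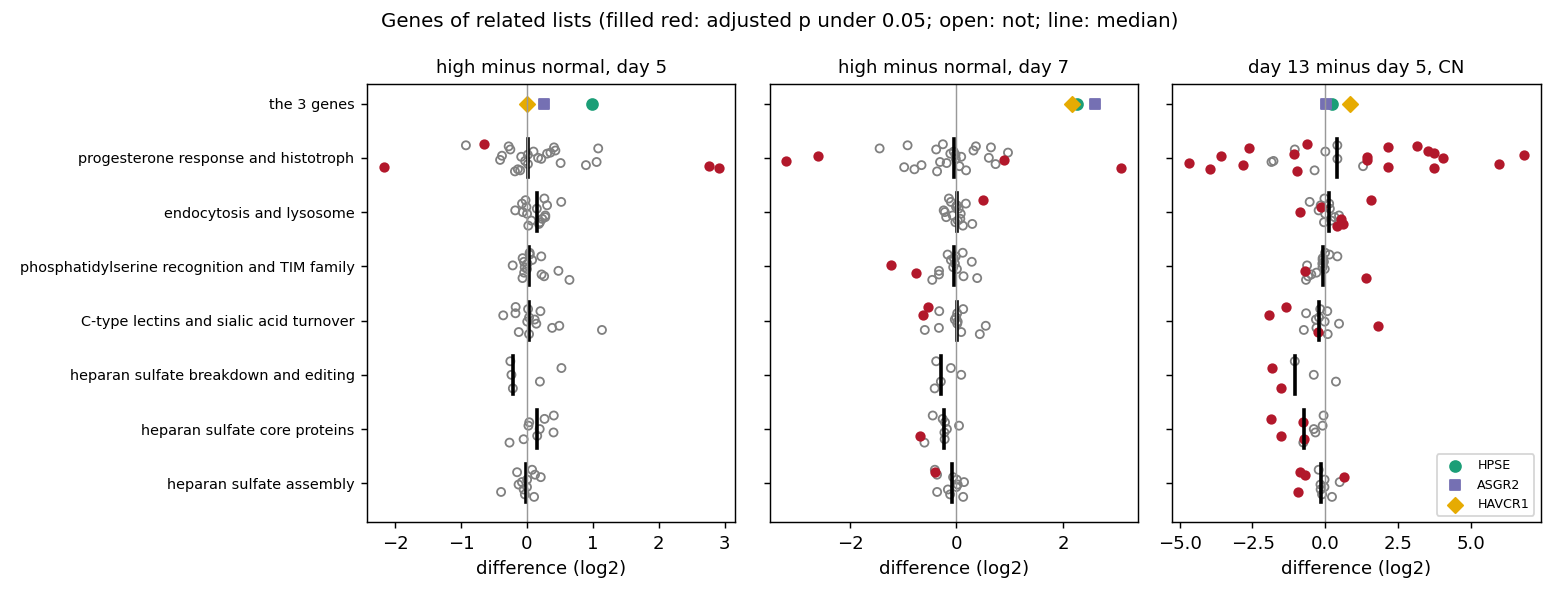
Log2 differences of single genes for high minus normal progesterone on day 5 and day 7 and for day 13 minus day 5 in CN heifers, by gene list; filled red points passed an adjusted p of 0.05, open points did not, and black lines are list medians. HPSE, ASGR2 and HAVCR1, in the top row with no test shown, lie at 2.27, 2.61 and 2.16 on day 7, the contrast that chose them.

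Markers of cell types known to express these genes were compared on day 7. Of 12 marker lists, 0 had a gene that passed for progesterone on day 7, and 0 on day 5. Of all named genes 2.16% passed upward and 4.52% downward on day 7, and 0.721% and 0.492% on day 5. At the day 5 shares a count of 0 tells little. The mean of 10 macrophage markers ran from 5.68 to 7.83 (median 6.45) at normal and from 5.52 to 6.70 (median 5.82) at high progesterone. The T and NK cell list had 13 genes, 4 of them under 3 on average. It ran from 3.05 to 4.73 at normal and from 3.00 to 3.61 at high progesterone. Both highest means were those of CN 5, an array that stood apart. The other 18 day 7 arrays reached up to 7.24 and 4.13.

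Hepatocyte markers, 7 measured, ran from 4.15 to 4.62 at normal and from 4.23 to 4.64 at high progesterone. The 4 proximal tubule markers, 3 of them under 3 on average, ran from 3.09 to 3.49 and from 3.15 to 3.98, the highest being CH 3. The 9 epithelial markers ran from 7.25 to 7.81 and from 7.39 to 7.72. The part of any cell type in the day 7 values of the 3 genes was not tested.

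The remaining lists also overlapped between the arms. Endothelial markers ran from 5.33 to 5.94 at normal and from 5.53 to 6.03 at high progesterone, and smooth muscle markers from 7.43 to 8.95 and from 7.63 to 11.28, the highest being PH 5. Neutrophil and mast cell markers ran from 4.07 to 5.45, the highest being CN 5, and from 3.89 to 4.89. B and plasma cell markers ran from 3.11 to 4.74 and from 3.14 to 4.62. Stromal markers ran from 10.90 to 11.55 and from 10.83 to 11.30. Platelet and red cell markers, all under 3 on average, ran from 2.48 to 2.63 and 2.31 to 2.42 at normal progesterone, and from 2.45 to 3.20 and 2.31 to 2.80 at high progesterone, with CH 3 the highest for both.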

How the data were processed

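Biotin-labelled cRNA made from Trizol-extracted RNA of endometrial strips was hybridised, per the labels' protocols. The authors deposited 1 log2 value for each probe set on each array. RMA, GCRMA and limma are named in the submitters' processing notes, and which of them made the log2 values that the authors deposited is not given in the sources used here. Probe sets took their gene from the platform annotation: 13292 had 1 symbol, 86 several and 10638 none. For 13263 of these probe sets the gene ID was found in RefSeq's cattle table, which changed 0 symbols. No sequence or coordinate is given because the build behind the files is not named.

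limma 3.58.1 (R 4.3.3) fitted the means of the 16 groups over 79 arrays, without 112 Affymetrix control probe sets, with 63 residual degrees of freedom and eBayes moderation. P-values are two-sided and adjusted by Benjamini-Hochberg over 24016 probe sets within each comparison, with a threshold of 0.05. The fit was tested on simulated data. Correlations between genes used permutation within groups (100000 draws; Python 3.11.15, pandas 2.3.3, scipy 1.17.1, matplotlib 3.10.9).

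Text names HPSE, ASGR2 and HAVCR1, their relatives, PGR, ESR1, the 5 genes of most similar profile, and up to 3 genes past the threshold with the largest difference per list. CCN2, FKBP4, HS6ST1 and SDC3, which lie outside that rule, were named after their values were seen. The calls on these genes were not followed through the alternatives. HPSE, ASGR2, HAVCR1 and the gene lists were chosen with earlier results of these data known.

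Alternatives were another probe set, only the arrays of the days compared, quantile normalization, a filter on dim probe sets, limma's trend and robust options, weights for arrays, the replicate number as a block, and each array left out in turn. Leaving out the arrays that stood apart, setting values under 3 to 3, and the differences between days were added after seeing the data. An array stood apart if its smooth muscle mean was above 10, its SD of deviations from the group mean above 0.45 or its SD of values under 2.7.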

Additional observations from a re-analysis of the deposited data

Results flagged for a closer look

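In 10 of 48 tests, each over 1 gene in 1 group of 4 or 5 arrays, the highest or lowest array lay far from the others by Dixon's criterion. Chance alone meets it in about 1 in 20 groups of normally distributed values. HPSE and HAVCR1 lay near the floor on most arrays, so that share need not hold, and the 10 are not read as an excess. For HPSE these were day 5 CN 2, the lowest of its group at 2.30 (next 2.52), day 13 CH 5, the highest at 2.52 (next 2.36), and day 13 PN 2, the highest at 3.36 (next 2.55). For ASGR2 they were day 5 CN 1, the highest at 6.14 (next 3.46), day 5 PN 2, the lowest at 2.99 (next 3.59), and day 13 PH 4, the lowest at 3.20 (next 3.58).

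For HAVCR1 they were day 7 CN 3, the highest at 2.94 (next 2.09), day 13 CH 3, the highest at 2.66 (next 2.19), day 16 PN 4, the highest at 2.18 (next 2.06), and day 16 PH 1, the highest at 3.35 (next 2.13). Of these 10 arrays only day 13 PH 4 was among the 7 that stood apart over all probe sets.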

How the results depend on the processing

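Over the alternatives that leave out no single array, 272 of the tested values for HPSE, ASGR2 and HAVCR1, day 7 progesterone aside, kept their side of the threshold and 4 came to pass it; among fits that leave out 1 array, 652 kept it and 5 came to pass it. None of these values passed in the main fit, so there was no call that could be lost or reverse. The day 5 HPSE difference of 0.98 passed with array weights (0.72, adjusted p = 0.0423), with a replicate block (0.98, 0.0459) and without the arrays that stood apart (0.76, 0.0363), and ran from 0.77 to 1.11 with 1 array left out. It did not pass with only the day 5 arrays (0.98, 0.202) or with values under 3 set to 3 (0.60, 0.282). The HAVCR1 difference between days 5 and 13 passed with only the arrays of those days (0.84, 0.016) and ran from 0.58 to 1.06 with 1 array left out; it was 0.82 (0.454) with the replicate block and 0.35 (0.490) with values under 3 set to 3. The filter on brighter probe sets leaves out all 3 genes and gave no value for them. The day 7 differences ran from 1.94 to 2.65 for HPSE, 1.63 to 2.95 for ASGR2 and 1.47 to 2.45 for HAVCR1.

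The counts of probe sets that passed also depended on the fit. For progesterone on day 5 (218) there were 115 with only the arrays of that day, 600 with array weights, 343 without the arrays that stood apart and 141 to 389 with 1 array left out. On day 7 (1128) there were 223 and 539 under the first and the last of these settings and 757 to 1467 with 1 array left out. On day 13 (106) the counts were 31, 413 and 169, and 60 to 181 with 1 array left out. On day 16 (23) they were 0, 5740 and 1416, with 13 after quantile normalization, 2 among brighter probe sets, and 5 to 198 with 1 array left out.

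For pregnancy on day 5 (4) the counts were 0 with only the arrays of that day, 0 among brighter probe sets, 16 with array weights, 0 with the replicate block, 15 without the arrays that stood apart, 1 with values under 3 set to 3, and 0 to 16 with 1 array left out. On day 7 (0) they were 1 with trend and robust moderation, 42 with array weights, 3 without the arrays that stood apart and 0 to 23 with 1 array left out. On day 13 (0) they were 15 with array weights, 3 without the arrays that stood apart and 0 to 1 with 1 array left out. On day 16 (759) they were 374 with only the arrays of that day, 3663 with array weights and 488 to 1273 with 1 array left out.

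For the interaction the counts on day 5 (0) were 1 with array weights, 5 without the arrays that stood apart and 0 to 1 with 1 array left out. On day 13 (5) they were 140 with only the arrays of that day, 2 after quantile normalization, 0 among brighter probe sets, 1542 with array weights, 9 without the arrays that stood apart and 0 to 10 with 1 array left out. On day 16 (209) they were 9, 3291 and 513 with only the arrays of that day, with weights and without the arrays that stood apart, and 3 to 671 with 1 array left out.

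The labels give no pairing by replicate number. Same-numbered arrays of a day had mean correlations of deviations of 0.0294, 0.0467, 0.0228 and -0.0092 on days 5, 7, 13 and 16, against -0.0076, -0.0107, -0.0056 and 0.0022 for other numbers. Single same-numbered correlations ran from -0.291 to 0.198, -0.107 to 0.324, -0.303 to 0.228 and -0.297 to 0.336. The criterion of 0.1 in every pair was therefore not met on any day. Arrays closest to their own number were 7 of 20, 8 of 19, 7 of 20 and 4 of 20. The share that unpaired arrays would reach was not determined. With the replicate block the count between days 5 and 13 was 2309 in place of 4650, and that between days 13 and 16 was 17 in place of 160. The latter was also 753 with array weights and 276 without the arrays that stood apart, and 94 to 195 with 1 array left out. By single days, the correlation of HPSE and ASGR2 fell under the threshold on day 5 (0.284), day 7 (0.472) and day 16 (0.008), and those of HPSE and HAVCR1 (0.604) and ASGR2 and HAVCR1 (0.615) passed on day 13. The causes were not tested. Signal over background limits HPSE and HAVCR1 most, since most arrays lie under 3 for both.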
